A study of Vitis vinifera with 12 samples.

Results

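The comparison described here sets Flame Seedless grape berries at 50 days after full bloom against berries of the same cultivar at 40 days. It covers 6 of the 12 messenger RNA libraries of the series, 3 per age, which were picked by the age in their labels. Each age has the replicates a, b and c, all from fruit, and no treatment separates them. The other 6 libraries, at 60 and 80 days, are used only to follow the gene models that moved. Levels are FPKM, fragments scaled to the length of the gene model and to the mapped total, so they can be set beside each other within a library. A gene model was tested when it reached 1 FPKM in at least 3 of the 6 libraries, which held for 13945 of the 22580 identifiers. Per the labels' protocol, biological replicates had their RNA extracted one by one and were pooled afterwards. It does not say whether libraries a, b and c come from separate plants, so a p-value here reflects the spread among 3 libraries per age, and that spread may be technical. Whether the libraries of an age were also prepared or sequenced together is not given, so age and preparation cannot be told apart.

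A grape berry first grows while it is hard, green and acid, passes through a lag phase and then begins to ripen at a stage called veraison. At veraison the flesh softens, hexose sugars build up in the vacuoles, malic acid is used up and, in red cultivars, the skin makes anthocyanins. Flame Seedless is a red-skinned table grape whose seeds abort early, so that the fruit holds little seed tissue. Transcripts of photosynthesis, cell division and tannin synthesis are known to decline as ripening nears, while those of sugar transport, wall loosening and colour increase. The interval studied was taken as the passage from before ripening into its early part. The deposited identifiers carry no gene names, and 0 of them matched the 29591 genes of the RefSeq table. Known ripening genes could therefore not be looked up to check the stage, and gene models are described by level, direction, place in the identifier order and later course. In whole berries, fewer cells of a type and less RNA per cell cannot be told apart.

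The number of identifiers detected overlapped between the ages, while sequencing depth is not known and could not be compared. Between 13338 and 13856 identifiers reached 1 FPKM in the 50-day libraries, against 13791 to 14326 in the 40-day libraries. The median spread between libraries of an age, as an SD of log2(FPKM + 1), was 0.141 at 50 days and 0.138 at 40 days. The 100 most abundant identifiers held 46.9%, 44.02% and 49.3% of the summed FPKM in 50-day replicates a, b and c, against 43.1%, 40.7% and 43.1% in the 40-day replicates. The ages did not overlap in this measure, and the exact two-sided permutation test gave p = 0.1, the smallest that 3 libraries against 3 can give (0.25 after adjustment over 5 library measures). For the number of identifiers at 1 FPKM or more, the exact permutation test gave p = 0.3 (adjusted 0.5).

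One 40-day library lay nearer to the other age than its companions did. When 40-day replicate a was left out and the ages compared without it, 1301 gene models were called. On the scale from the 50-day mean (0%) to the mean of the other 40-day libraries (100%), replicate a stood at a median of 73.8% for these gene models, with 73.2% for rises and 73.8% for falls. The same measure was 102% for 40-day replicate b and 109% for replicate c. Among the 50-day libraries, replicate a stood at 84.8% of the way from the 40-day mean to its own age, replicate b at 102% and replicate c at 98.5%. Every left-out library fell on its own age's side of the midpoint for most of the gene models called without it, from 84.6% for 40-day replicate a to 98.2% for 40-day replicate b.

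Falls outnumbered rises at 50 days. In limma's moderated test on log2(FPKM + 1), 296 gene models rose and 847 fell (Benjamini-Hochberg adjusted p under 0.05 and a difference of at least 1, a doubling or halving on this scale). The calls were 8.2% of all gene models tested, with 2.12% for rises and 6.07% for falls. Without 40-day replicate a, 346 rose and 955 fell. The typical rise took a gene model to a median of 23.9 FPKM at 50 days, against 7.58 FPKM at 40 days. The typical fall took one to 4.64 FPKM at 50 days, against 17.1 FPKM at 40 days. The median difference was 1.34 among rises and -1.45 among falls on the log2 scale, and -0.03 over all gene models tested, where the standard error had a median of 0.128. For weakly expressed gene models the pseudocount of 1 makes these differences too small.

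**Figure D1:**
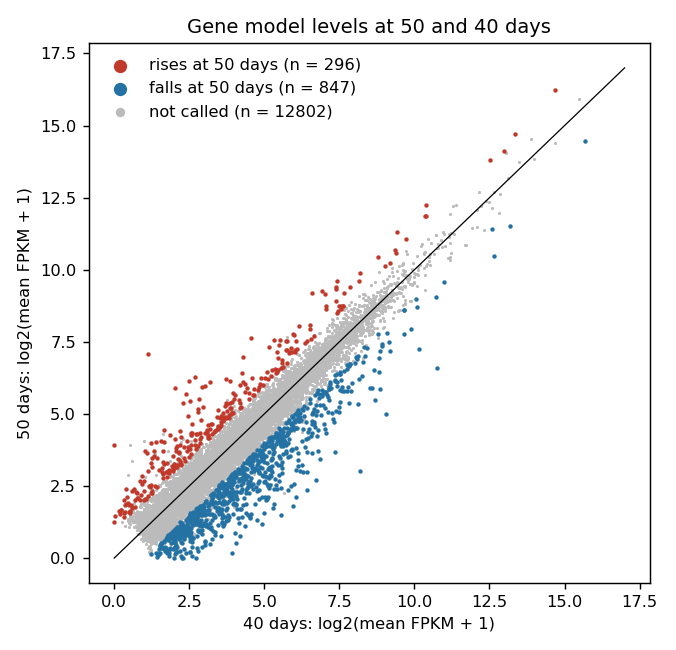
Mean level of each tested gene model at 50 days (vertical) and at 40 days (horizontal), both as log2(mean FPKM + 1), with the line of equal levels. The 296 rises lie above the line and the 847 falls below it, and the falls are densest at low and middle levels.

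The excess of falls grew with the size of the change up to a difference of 2. With an adjusted p under 0.05 and no minimum difference, 30.7% of gene models passed, 1822 higher and 2460 lower at 50 days, so that 42.6% of them were higher. At a minimum of 0.5 (log2) the share that rose was 34.8%, at 1 it was 25.9%, and at 2 it was 19.7%, from 46 rises and 187 falls. At a minimum of 3 there were 10 rises and 33 falls, and at 4 there were 2 and 6. Another 138 gene models differed by at least 1 without passing the adjusted p, 39 of them higher and 99 lower at 50 days. The libraries of both ages did not overlap in 49.5% of gene models, 3151 higher and 3750 lower at 50 days, and in 1141 of the 1143 called.

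The balance of rises and falls differed between level classes. Levels here are the average over both ages on the log2 scale, turned back into FPKM. Under 3 FPKM, 50 gene models rose and 197 fell of 2217 tested. From 3 to 10 FPKM the counts were 77 rises and 250 falls of 3449, and from 10 to 30 FPKM 73 rises and 221 falls of 4009. Without 40-day replicate c the weakest class held 33 rises and 192 falls. Falls per rise came to 3.94 in the weakest class, 2.25 from 30 to 100 FPKM and 1.96 from 100 to 300 FPKM. The weakest class came to 2.49 without 50-day replicate c, to 1.79 under quantile normalization (73 rises and 131 falls) and to 9.41 in the fit to all 12 libraries (34 and 320), whose levels take in the later ages. The class from 100 to 300 FPKM came to 1.19 when 40-day replicate c was left out, to 1.20 when 50-day replicate b was and to 0.677 in the fit to all 12 libraries. So under quantile normalization the weakest class held fewer falls per rise than the class from 100 to 300 FPKM, at 1.96. At 300 FPKM or more, 21 gene models rose and 17 fell of 425. This order turned to 14 rises and 22 falls without 50-day replicate a, and to 17 and 26 without 50-day replicate c. Among the 83 gene models at 1000 FPKM or more, 11 rose and 5 fell, so that 13.3% of this class rose, where 2.12% of all did. Leaving out libraries gave 6 rises (without 50-day replicate a) to 15 (without 40-day replicate a) in this class, and 7 without 50-day replicate c. The falls were 4 to 6, so rises were the more numerous each time. The median difference (log2) was -0.13 under 3 FPKM, -0.09 from 3 to 10 FPKM, -0.01 from 10 to 30 FPKM, 0.03 in each class from 30 to 300 FPKM, and 0.0049 at 300 FPKM or more.

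**Figure D2:**
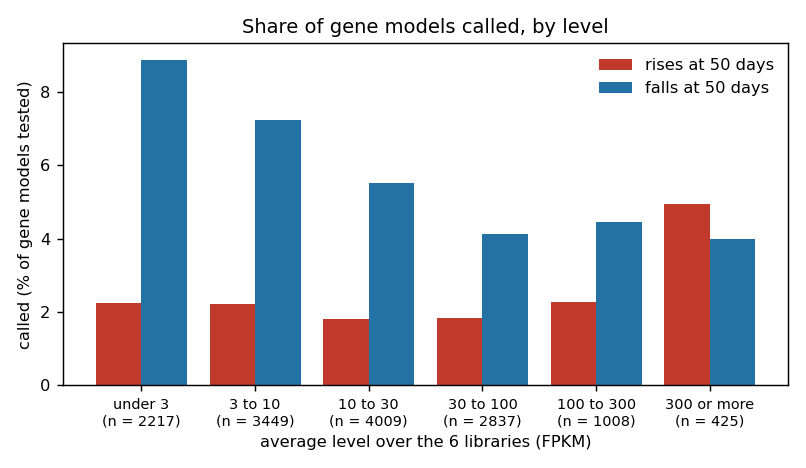
Share of the tested gene models in each level class that rose (red) or fell (blue) at 50 days, in percent, by average FPKM over the 6 libraries. The share of falls goes from 8.89% under 3 FPKM to 4% at 300 FPKM or more, and the share of rises is highest, at 4.94%, in the last class.

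FPKM are relative to the whole library, and a few very abundant transcripts moved in this interval. The 296 rises together held 16.7%, 15.6% and 17.3% of the summed FPKM in 50-day replicates a, b and c, against 7.43%, 5.87% and 5.91% in the 40-day replicates. The 847 falls together held 3.97%, 3.98% and 4.26% at 50 days, against 10.4%, 12.5% and 13.2% at 40 days. These shares describe gene models that the same values selected and are no test. The gain was concentrated: 2 rises made up 50% or more of the summed FPKM gained by all 296, and 3 falls made up as much of the FPKM lost by all 847. When the 10 most abundant were taken out and the remainder rescaled to the same sum, 390 rose and 784 fell, and the median difference of all gene models was 0.07 instead of -0.03. Quantile normalization gave 378 rises and 700 falls.

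Named here are the 2 rises and 2 falls with the largest difference in mean FPKM among calls whose libraries did not overlap between the ages. The lack of overlap in each of the 4 therefore follows from the choice. VIT_05s0049g00760 stood at 76324, 63016 and 91576 FPKM in 50-day replicates a, b and c, against 32177, 21507 and 24350 FPKM in the 40-day replicates. Every 50-day library lay above every 40-day library, and the gene model was the most abundant of all at 50 days, where it had ranked 4 at 40 days. Its mean was 76972 ± 14291 FPKM at 50 days and 26011 ± 5526 FPKM at 40 days (SD, n = 3 each), and the log2 difference was 1.57 ± 0.363 (SE; limma adjusted p = 0.0203). It alone accounted for 44.1% of the FPKM gained by the rises. Without 40-day replicate b or c or 50-day replicate a or c the adjusted p from limma was 0.0599 to 0.0755, so the call was lost in those 4 cases.

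VIT_08s0056g01610 stood at 26903, 22164 and 31128 FPKM in the 50-day replicates, against 10785, 8858 and 11817 FPKM in the 40-day replicates. The ages did not overlap. The log2 difference was 1.35 ± 0.256 (SE; limma adjusted p = 0.0106), and the call held with each library left out, with limma adjusted p-values of 0.0210 to 0.0445. It ranked 3 at 50 days and 8 at 40 days. Later it stood at 24832 ± 1713 FPKM at 60 days and 42565 ± 4350 FPKM at 80 days (SD, n = 3 each), while VIT_05s0049g00760 stood at 64171 ± 8378 and 58237 ± 16086 FPKM. The difference between 80 and 60 days passed the test for neither (limma adjusted p = 0.135 and 0.821).

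VIT_19s0014g02740 was the most abundant gene model at 40 days. It stood at 19776, 18473 and 29062 FPKM in the 50-day replicates, against 42476, 45677 and 68267 FPKM in the 40-day replicates. Replicate c was the highest at both ages, and the ages did not overlap. The log2 difference was -1.21 ± 0.362 (SE; limma adjusted p = 0.0447), close to the threshold. The call was lost with any 1 of the 6 libraries left out (limma adjusted p = 0.0505 to 0.156), under median-ratio scaling (adjusted p = 0.05004) and with the replicate letter as a block (adjusted p = 0.0519). Its level was lower again at each later age, at 11750 ± 2812 FPKM at 60 days and 5941 ± 1415 FPKM at 80 days (SD, n = 3 each; 80 against 60 days, limma adjusted p = 0.0574).

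VIT_02s0025g04330 stood at 2818, 3559 and 2341 FPKM in the 50-day replicates, against 11433, 10132 and 6011 FPKM in the 40-day replicates. The lowest 40-day library, replicate c, was still above every 50-day library. The log2 difference was -1.63 ± 0.290 (SE; limma adjusted p = 0.00862), and the call held with each library left out (limma adjusted p = 0.00918 to 0.0334). It ranked 28 at 50 days and 9 at 40 days. At 60 and 80 days it stood at 963 ± 251 and 1331 ± 417 FPKM (SD, n = 3 each). The call of all but this gene model among the 4 was lost when every identifier above 0 was tested, with limma adjusted p-values of 0.201 to 0.514, against 0.0328 for VIT_02s0025g04330.

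**Figure D3:**
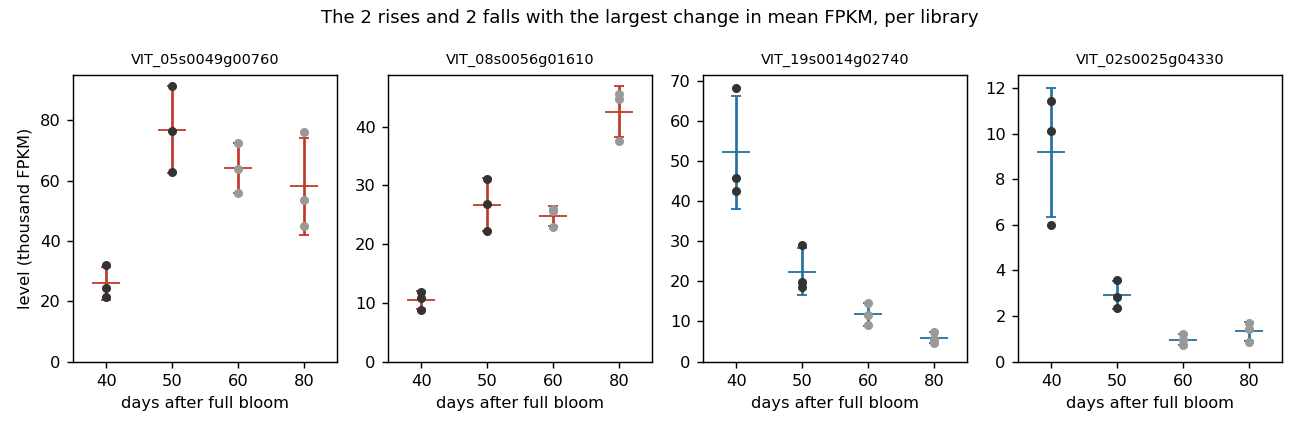
Level (FPKM, axis in units of 1000) of the 2 called rises (left) and 2 called falls (right) with the largest change in mean FPKM, by days after full bloom. Points are libraries (black at 40 and 50 days, grey at 60 and 80 days) and coloured bars are the mean and SD of 3 libraries. The gene models were chosen so that the 50-day libraries do not overlap with the 40-day libraries.

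Most changes were between detectable levels, and few gene models went fully on or off. Of the 296 rises, 35 had a mean under 1 FPKM at 40 days. Means of at least 100 FPKM were reached by 67 rises at 50 days, against 34 of the same gene models at 40 days, and means of at least 1000 FPKM by 14 against 7. Of the 847 falls, 152 had a mean under 1 FPKM at 50 days. Means of at least 100 FPKM were held by 33 falls at 50 days, against 112 of the same gene models at 40 days. Among gene models at 1 FPKM or more in all 6 libraries, 235 rose and 616 fell of 12611, so the excess of falls was also present there. Another 190 gene models passed the filter through the 40-day libraries alone, and 98 of them were called falls, while 80 passed through the 50-day libraries alone and 26 of these were called rises. A gene model admitted in this way can hardly be called in the other direction.

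By a stricter rule, 6 gene models were under 1 FPKM in every 50-day library and at 5 FPKM or more in every 40-day library. They ran from 0.119 to 0.902 FPKM at 50 days, against 5.18 to 23.6 FPKM at 40 days, and their means were under 1 FPKM in 5 of the 6 at 60 days and in all 6 at 80 days. Leaving out 1 library loosens the rule, and 14 then met it without 50-day replicate a or without 40-day replicate a. In the other direction a single gene model met the rule, while 5 did when 40-day replicate a was left out, 3 when b of that age was, and 2 when c of that age or 50-day replicate b was. It was at 12.2, 15.5 and 14.3 FPKM in the 50-day libraries and listed at 0 in every 40-day library. It was also listed at 0 in 60-day replicate a and 80-day replicate b, against 13.6 and 10.6 FPKM in the other 60-day libraries and 9.75 and 28.9 FPKM in the other 80-day libraries. A value of 0 in this table can be a failed estimate, so no fold is given.

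Gene models that the authors labelled as new, which are outside the VIT_ numbering, were called in both directions. Of 294 tested, 15 rose and 14 fell, 5.10% and 4.76% of them, while 281 rose and 833 fell among the 13651 VIT_ gene models, 2.06% and 6.10%. The median difference was 0.12 for the new gene models and -0.03 for the VIT_ gene models on the log2 scale. The new ones were weaker, with a median level of 3.76 FPKM against 14.6 FPKM. Without single libraries the counts were 11 to 21 rises and 9 to 14 falls, the lowest count of falls without 40-day replicate c. The rises numbered 23 under quantile normalization and also after the 10 most abundant had been taken out, where the falls were 9 and 13. When only those averaging 5 FPKM or more were tested, 6 rose and 9 fell, and with no filter 12 rose and 9 fell. Among VIT_ gene models, the share that fell ran from 4.20% for identifiers starting VIT_13 to 8.36% for those starting VIT_02. The share that rose ran from 1.12% for VIT_02 to 3.18% for VIT_11. In each of these 20 number groups, more gene models fell than rose.

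Tested identifiers next to each other in the order were called alike in a few places. A run was counted when at least 3 tested identifiers that follow each other in a block were all called in 1 direction. Identifiers that were not tested are skipped, so the numbers of the members need not be consecutive. There were 3 rising and 7 falling runs, with 9 and 22 members. Of all VIT_ gene models tested, 2.06% rose and 6.10% fell, and how many runs scattered calls would give was not tested. With no filter, where more identifiers are tested, there were 0 rising and 4 falling runs, and with a pseudocount of 0.1 there were 4 and 12. With all 6 libraries and the filter, 256 rises and 697 falls among VIT_ gene models had no neighbouring tested identifier called alike. Leaving out libraries gave 2 to 4 rising runs, with 2 when 40-day replicate b or 50-day replicate a or c was missing. The falling runs then numbered 3 to 12. There were 12 when 40-day replicate a was missing, 4 when b of that age was missing and 3 when c was. Gene models with similar sequence often lie side by side, but whether the members of a run are similar was not tested. How the authors assigned reads that match several gene models is not given, so single members of a run are uncertain.

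The run in the VIT_10s0003 block had medians of 13.2, 14.7 and 15.9 FPKM in the 50-day replicates, against 4.06, 2.59 and 0.659 FPKM in the 40-day replicates. Its members differed by 2.67 to 3.74 on the log2 scale. Its medians were 28.5 to 58.7 FPKM in the 60-day libraries and 172 to 195 FPKM in the 80-day libraries. The members did not all rise from 50 to 60 days. In identifier order, their means went from 11.4 to 48.4, 12.2 to 15.7 and 76.2 to 68.5 FPKM in that interval. At 80 days the means were 215, 54.5 and 197 FPKM. The run in the VIT_14s0006 block had medians of 62.6, 79.4 and 39.0 FPKM in the 50-day replicates, against 7.34, 6.36 and 5.83 FPKM in the 40-day replicates. The third, in the VIT_04s0008 block, had medians of 5.39, 7.24 and 8.90 FPKM in the 50-day replicates, against 0.895, 0.575 and 0.533 FPKM in the 40-day replicates. Its medians were 7.33 to 8.44 FPKM in the 60-day libraries and 3.38 to 5.56 FPKM in the 80-day libraries, so of the 3 rising runs it was the one whose 80-day medians lay below those of its 60-day libraries in every library.

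Among the falling runs, 3 lay in the VIT_06s0004 block, with 10 members in all. The longest of these, of 4 members, had medians of 5.90, 3.17 and 3.51 FPKM in the 50-day replicates, against 12.5, 22.9 and 20.5 FPKM in the 40-day replicates. Here 40-day replicate a was the nearest to the 50-day libraries, while in another run of this block it was the farthest, with a median of 32.5 FPKM against 14.7 and 11.8 FPKM in replicates b and c. The most strongly expressed falling run, in the VIT_02s0025 block, had medians of 15.4, 8.58 and 10.7 FPKM in the 50-day replicates, against 40.2, 81.5 and 86.2 FPKM in the 40-day replicates. It is in the same block as VIT_02s0025g04330, which was not a member. The run in the VIT_14s0081 block had medians of 3.49, 1.66 and 0.828 FPKM at 50 days, against 5.98, 7.14 and 4.95 FPKM at 40 days. Its medians were 3.69 to 4.71 FPKM in the 60-day libraries and 0.744 to 1.18 FPKM in the 80-day libraries. In identifier order, the means of its members went from 0.585 to 5.76, 1.99 to 1.53 and 4.80 to 5.41 FPKM between 50 and 60 days.

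**Figure D4:**
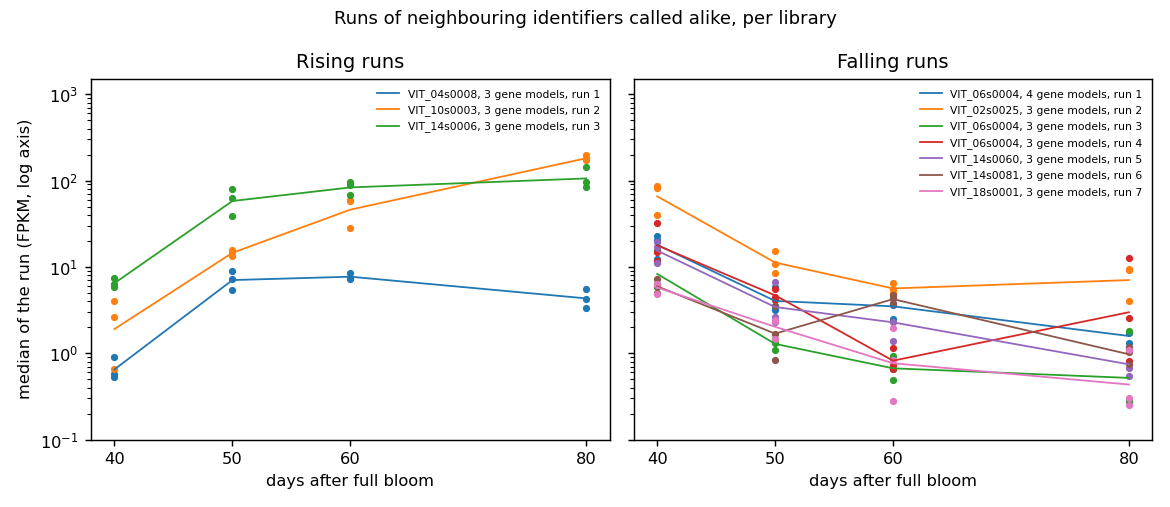
Median FPKM of each run of neighbouring tested identifiers per library (points, log axis) by days after full bloom, with lines through the geometric mean of the 3 libraries. In all 3 rising runs the 50-day libraries lie above the 40-day libraries, and in all 7 falling runs they lie below. The members were called from these same libraries, so this order follows from the choice and is no test.

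The 60- and 80-day libraries, which did not choose these gene models, showed where they went next. Taken over the 296 rises, the library medians were 6.23 to 8.96 FPKM at 40 days, 21.8 to 26.3 at 50 days, 24.02 to 27.3 at 60 days and 30.9 to 35.9 at 80 days. Over the 847 falls they were 14.1 to 18.8, 4.17 to 5.30, 2.59 to 4.37 and 1.54 to 2.17 FPKM at the same ages. Gene models that were not called kept a median of 14.6 to 15.2 FPKM in every library from 40 to 80 days. The share of the summed FPKM held by the rises was 14.6% to 17.6% at 60 days and 18.4% to 19.97% at 80 days, and that of the falls 2.05% to 2.84% and 1.40% to 1.65%.

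**Figure D5:**
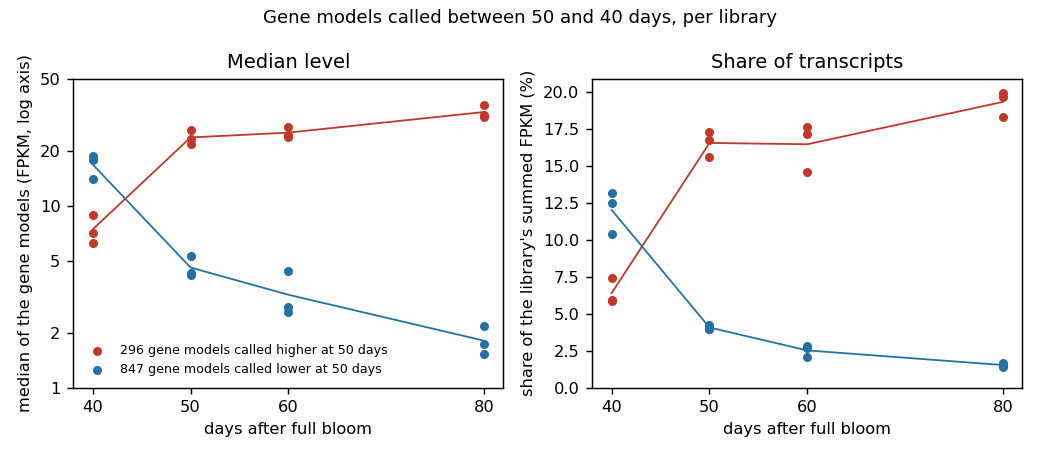
Left, the median FPKM (log axis) of the 296 gene models called higher and the 847 called lower at 50 than at 40 days, and right, their share of the summed FPKM in percent, by days after full bloom. Points are libraries and lines join the means of 3 libraries. The curves cross between 40 and 50 days, the ages that chose these gene models, and stay apart at 60 and 80 days.

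Between 80 and 60 days, a comparison that shares no library with the first, 1.25% of all gene models tested rose and 1.93% fell (limma, same thresholds). Of the 296 earlier rises, 34 rose again and 4 fell, 11.5% and 1.35%. Of the 847 earlier falls, 86 fell again and 12 rose, 10.2% and 1.42%. With a pseudocount of 0.1, 165 of the 1058 falls then called fell again, 15.6%. The share of all gene models that fell with this pseudocount was not counted, so 15.6% cannot be set beside 1.93%. The median difference from 60 to 80 days was 0.32 on the log2 scale among earlier rises and -0.36 among earlier falls, against 0.00 over all gene models tested. The difference was positive in 210 of the earlier rises (70.9%) and negative in 653 of the earlier falls (77.1%), where 50.4% of all gene models were positive. Among earlier rises of at least 2 on the log2 scale, 12 of 46 rose again, and among falls of that size 29 of 187 fell again.

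These later counts changed when single 60- or 80-day libraries were left out. How many of all gene models were called in those runs was not counted, so whether calls in general dropped as much is not known. Rises that rose again numbered 14 when 60-day replicate c was missing, 15 when 80-day replicate c was and 19 when 60-day replicate a was. They numbered 25 without replicate b of either age and 36 without 80-day replicate a. Falls that fell again numbered 27 when replicate c of either age was missing, 32 when 60-day replicate a was and 43 when 80-day replicate b was. In each case the calls in the earlier direction stayed the more numerous.

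The 34 gene models called higher in both comparisons had medians of 3.25 to 5.82 FPKM in the 40-day libraries, 19.9 to 23.4 at 50 days, 18.9 to 31.6 at 60 days and 69.3 to 88.9 at 80 days. The 50- and 60-day libraries overlapped in this median. The values of all 4 ages chose these gene models and those below. Their medians and overlaps are shaped by this choice and are no test. The 86 gene models called lower in both had medians of 32.6 to 42.8 FPKM at 40 days, 8.16 to 10.4 at 50 days, 6.97 to 10.96 at 60 days and 2.18 to 2.59 at 80 days, with the same overlap between 50 and 60 days. The 12 that fell first and rose later had medians of 54.5 to 79.6 FPKM at 40 days, 13.6 to 26.3 at 50 days, 7.64 to 9.80 at 60 days and 18.8 to 24.97 at 80 days. Their count was 4 without 40-day replicate b, 60-day replicate a or 60-day replicate c, and 5 or 6 without 50-day replicate b, 60-day replicate b, 80-day replicate b or 80-day replicate c. The 4 that rose first and fell later had medians of 5.12 to 7.61, 15.6 to 34.2, 12.3 to 24.5 and 4.62 to 5.88 FPKM at the 4 ages. Their count was 0 when 60-day replicate c was missing, 1 when 80-day replicate b was and 7 when 40-day replicate a was. It was 2 without 40-day replicate b, 60-day replicate a, 60-day replicate b or 80-day replicate c.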

How the data were processed

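The authors deposited 1 table of FPKM values for the 12 libraries. The submitters' processing notes name Trimmomatic 0.36, Cufflinks, TopHat2, FastQC and edgeR without saying what each did. Genome build and annotation: not given in the sources used here. Per the labels' protocols, polyadenylated RNA was made into directional libraries. Each column was assigned by its library code, and 0 columns remained unassigned.

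From the table, log2(FPKM + 1) was fitted with limma 3.58.1 (R 4.3.3) to the 6 libraries of both ages, with a mean per age and a trended prior variance, and p-values were adjusted over all 13945 gene models tested. The fit was run on simulated data with known changes, whose noise was normal, independent and equal at both ages. Such a run cannot show how the fit does where FPKM depart from these assumptions. The comparison of 80 with 60 days used the same gene models and thresholds. Depth is unknown, since the table holds no counts, so no interval for counting error is given. In the 6 libraries, 1922 identifiers were listed at 0 throughout. The gene models named were those called, without overlap between the ages, with the largest difference in mean FPKM, 2 in each direction. Gene lists by product name could not be used. The gene models, rules and tests were chosen with earlier results of these data known.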

Additional observations from a re-analysis of the deposited data

How the results depend on the processing

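Leaving out each of the 6 libraries in turn gave 944 to 1301 gene models called between 50 and 40 days, 244 to 346 rises and 699 to 955 falls, and 78.7% to 93.9% of the calls made with all libraries were kept. No call turned direction under any alternative run for this comparison, but these runs reuse the libraries that made the calls, so a turn was unlikely from the start. With no minimum difference, a looser rule, 4282 gene models passed, 1822 higher and 2460 lower at 50 days. The other alternatives stayed within 1.5 times the counts: a pseudocount of 0.1 (368 rises and 1058 falls), no filter, a mean of at least 5 FPKM (233 and 594), 3 other scalings, no trend, and a fit to all 12 libraries (305 and 866). With the replicate letter as a block, 284 rose and 780 fell. Deviations of same-lettered libraries correlated at -0.259, -0.0926 and 0.225 for a, b and c. Those of differently lettered libraries ran from -0.203 to 0.328. The highest were 0.328 for 50-day replicate a with 40-day replicate b and 0.274 for 50-day replicate b with 40-day replicate a. So the letters gave no steady pairing, and whether libraries of the ages pair in another way was not tested.

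For the earlier calls between 80 and 60 days, leaving out libraries gave 14 to 36 rises that rose again, 0 to 7 that fell, 27 to 93 falls that fell again and 4 to 16 that rose. Leaving out 40- or 50-day libraries there was added after seeing the data, as were the alternatives for level classes, new gene models and runs. With a pseudocount of 0.1, 165 of 1058 falls fell again. The share over all gene models with this pseudocount was not counted, and the cause was not tested. In the class under 3 FPKM, a pseudocount of 0.1 gave 112 rises and 414 falls. At 300 FPKM or more, testing with no filter gave 16 rises and 16 falls. At 1000 FPKM or more it gave 7 rises and 4 falls, and the fit to all 12 libraries gave 11 and 3. Changes of at least 2 (log2) numbered 93 rises and 338 falls with a pseudocount of 0.1. Values of the 4 named gene models stayed past the threshold in 42 cases, lost it in 15 and turned sign in 0, all in runs that reuse the same libraries. Since the table holds no depth, the share of counting error in the spread of weak gene models is unknown.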
